A study of Mus musculus with 12 samples.

Results

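The genes of the BMP, activin and TGF-beta pathway were followed across 4 depots of denervated mouse fat. Members were chosen by symbol, with earlier results of these data known. They were the BMP, GDF, TGF-beta and inhibin beta ligands, the receptors named Bmpr, Acvr or Tgfbr, and the Smads. The antagonists chordin, noggin, gremlin and follistatin with their relatives were also included. This gave 64 Ensembl IDs of 63 symbols, of 47729 genes in each deposited table. Of the 64, 54 passed the filter on low counts and were tested.

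Ligands of this family are secreted dimers that bind a pair of type I and a pair of type II receptor kinases at the cell surface. BMPs and several GDFs act through Smad1, Smad5 and Smad9, whereas activins and TGF-betas act through Smad2 and Smad3, and both arms share Smad4. Secreted antagonists bind the ligands, and Smad6 and Smad7 dampen signalling inside the cell. In adipose tissue BMP4 and BMP7 are known for committing precursors to the fat lineage and for brown fat development, TGF-beta and activin A for holding back adipocyte differentiation and for matrix production.

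The groups were interscapular brown fat (BAT), retroperitoneal white fat (RWAT), inguinal white fat (IWAT) and epididymal white fat (EWAT), with 3 libraries each. All 12 came from wild-type C57BL/6J males given a high-fat rodent diet, for which the series text gives 6 to 10 weeks as the age without saying whether this is the feeding period. Its wording does not make plain whether the study had another diet, and none other is analysed here. Every sample is labelled as surgically denervated, so all groups share the operation, and only depots were compared. Sequencing of rRNA-depleted total RNA gave single-end reads of 75 bp. Nothing in the labels ties the 3 samples of a depot to separate animals, and the p-values reflect the spread among these samples only, and that spread may be technical.

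Library totals ran from 12933516 to 21106554 expected counts, and 3 counts, taken as the floor, equalled 0.134 to 0.227 CPM (counts scaled to a common library total with TMM factors). Correlations of log2 CPM between replicates ran from 0.935 to 0.966. The labelled tissue was checked against marker genes. Ucp1, the uncoupling protein that defines brown fat, stood at 1489 CPM in BAT 1 but at 0.254 and 1.70 CPM in BAT 2 and BAT 3, so the label BAT was not borne out by this marker in those libraries. The 8 brown adipocyte genes summed to 2440, 5.73 and 16.7 CPM in BAT 1 to 3, against 145, 55.7 and 16.8 CPM in IWAT. The summed level of 10 adipocyte genes was lowest in EWAT 1 (1026 CPM), followed by RWAT 2 (2933 CPM) and BAT 2 (3768 CPM), and was highest in IWAT 1 (27348 CPM). Summed skeletal muscle transcripts reached 512 CPM in RWAT 1 and 2613 CPM in RWAT 3, against 11.9 CPM in RWAT 2. The 7SL RNA genes Rn7s1 and Rn7s2 took 8.41% of TPM in IWAT 2 and 46.9% in EWAT 2, so TPM (abundance per transcript length) serves here only to compare genes with one another, and CPM to compare libraries.

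Receptors and Smads were more abundant per length than most ligands. By median TPM over the 12 libraries, the member with the highest level was Fstl1, a secreted follistatin-like glycoprotein, at 366 TPM. It was followed by Tgfbr2, the type II receptor of the TGF-betas, at 65.2 TPM. Tgfb1 was the highest ligand, at 39.2 TPM, near Smad2 at 38.2 TPM and the co-receptor Tgfbr3 (betaglycan) at 33.3 TPM. Among the BMP ligands the highest median was that of Bmp3, at 7.44 TPM, followed by Bmp2 at 1.81 TPM, Bmp6 at 1.78 TPM, Bmp4 at 0.875 TPM and Bmp7 at 0.49 TPM. Of the GDFs, Gdf15 stood at 11.1 TPM and Gdf10 at 3.73 TPM. Inhbb, the beta B subunit of activins and inhibins, stood at 9.85 TPM and Inhba, the beta A subunit, at 1.48 TPM. The spread between libraries, taken in CPM, differed among members. Inhba ranged from 0.131 to 37.7 CPM, and Acvr1c (ALK7, a type I receptor known from adipocytes) from 1.62 to 338 CPM. Smad4 ranged from 54.3 to 68.7 CPM.

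**Figure D1:**
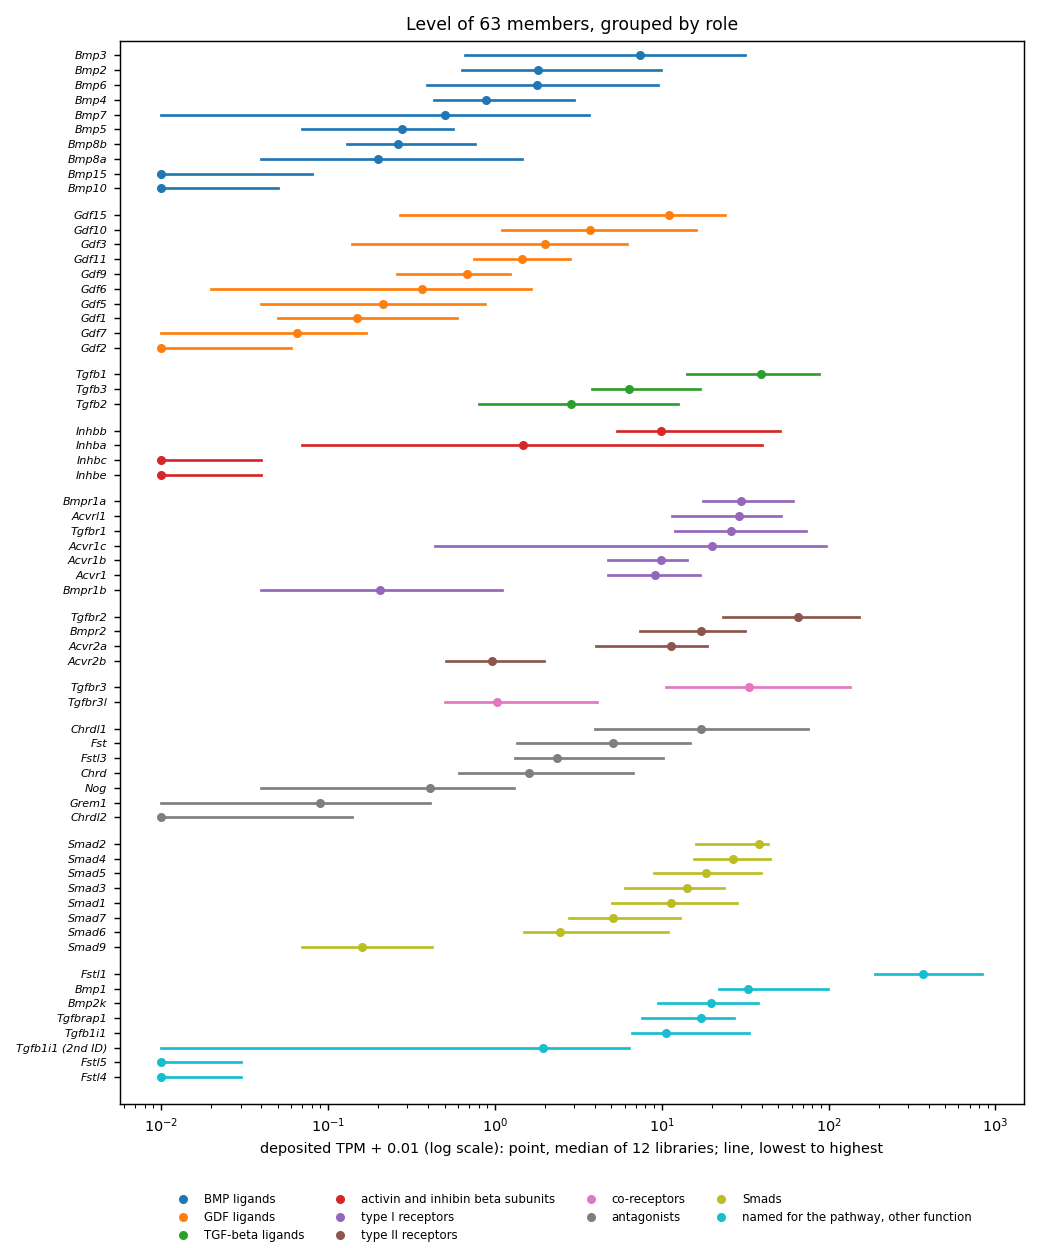
Deposited TPM plus 0.01 of 63 of the 64 members on a log axis, grouped by role, with the median of the 12 libraries as a point and the lowest and highest library as the ends of a line. Fstl1 has the highest median (366 TPM), and the receptors and Smads lie above most ligands.

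The other 10 members had too few reads to be tested. Bmp10, Bmp15, Gdf2, Gdf7, Inhbc, Inhbe, Chrdl2, Fstl4 and Fstl5 had 1 to 16 counts in total over the 12 libraries. Gdf1 had 45 counts in total and at most 10 in a library, and its exons lie wholly within those of Cers1 on the same strand, so its reads cannot be told apart from that gene. These members were not detectable as differing at this depth. Tgfb1i1, which encodes a focal adhesion adaptor, is listed under a pair of Ensembl IDs that share reads. The RSEM posterior standard deviation of each count reached 19.6 there, so the split between them is uncertain.

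The comparison of IWAT with EWAT asked how the pathway differs between a subcutaneous and an intra-abdominal depot, and held the calls. In IWAT, transcripts of the BMP ligands Bmp6, Bmp7 and Bmp8a, of Gdf10, of the BMP antagonist Chrd, of the receptors Tgfbr3 and Acvr2a, and of Smad5 and Smad6 were higher. Tgfbr1, the type I receptor of the TGF-betas, and Inhba were lower. The changes ran from 1.59-fold for Smad5 to 43.9-fold for Bmp7, with 3 libraries per depot. In edgeR's quasi-likelihood test, with Benjamini-Hochberg adjustment over 18942 genes at 0.05, 11 of the 54 tested members were called (20.4%), 9 higher and 2 lower in IWAT, while 9.03% of all genes were called, 4.43% higher and 4.6% lower. The difference between the members' share and that of all genes was not tested. The median log2 fold change was 0.15 over the 54 members and 0.02 over all genes tested. At an unadjusted p below 0.05 there were 25 members (46.3%), against 29.7% of all genes.

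These calls rest on few libraries. Of the 11 members, 1 was still called without EWAT 3, without IWAT 1 or without IWAT 2, and 2 without EWAT 1, while the genes called in all fell to 121 without EWAT 3, 45 without IWAT 1, 16 without IWAT 2 and 434 without EWAT 1, against 1710 with all libraries. Without EWAT 1 and BAT 2 together 5 were still called, and without RWAT 1 and RWAT 3 together 7. Tgfbr3 was called under each of the 25 alternatives run, with a log2 fold change between 2.13 and 2.58. The other 10 kept their direction wherever they were tested.

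**Figure D2:**
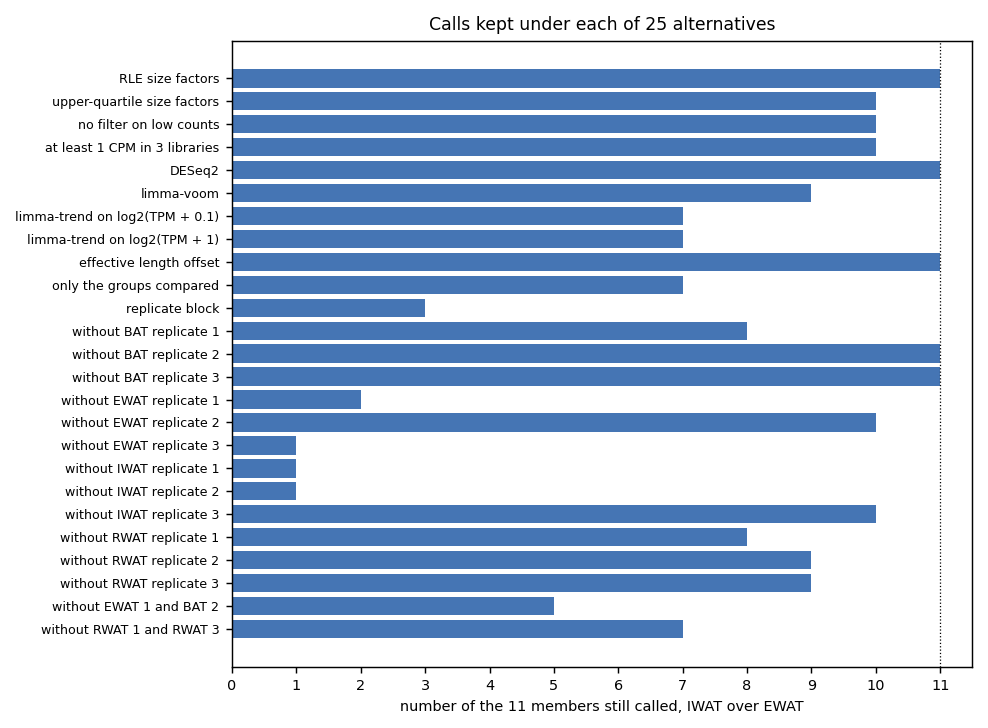
Number of the 11 members called between IWAT and EWAT that were still called under each of 25 alternatives (bars). The dotted line marks 11, and the lowest bars, at 1, are those without EWAT 3, IWAT 1 or IWAT 2.

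Markers of several cell types moved along with this comparison. Counts of markers that rose or fell are calls in edgeR, where 4.43% of all genes were called higher and 4.6% lower. The 10 adipocyte genes summed to 16166 to 27348 CPM in IWAT, against 1026 to 9077 CPM in EWAT, with 0 of 10 called. At an unadjusted p below 0.05 in edgeR 7 were higher, as were 2832 of all 18942 genes. Mesothelial genes, which mark the lining of abdominal fat, summed to 3.06 to 5.36 CPM in IWAT, against 52.7 to 146 CPM in EWAT, and 5 of 8 fell. The defining genes Wt1 and Krt8 stood at 0 to 0.118 CPM and 0 to 0.0654 CPM in IWAT. Macrophage genes summed to 2904 to 3713 CPM in IWAT, against 8799 to 10293 CPM in EWAT, with 1 of 9 IDs higher and 2 lower. Fibroblast and preadipocyte genes summed to 1062 to 1644 CPM in IWAT, against 546 to 717 CPM in EWAT, and 5 of 8 rose. Mural and smooth muscle genes summed to 371 to 566 CPM in IWAT, against 635 to 1562 CPM in EWAT, and 3 of 8 fell. Endothelial genes summed to 332 to 782 CPM in IWAT, against 259 to 740 CPM in EWAT, and 1 of 8 rose. In whole tissue, fewer cells of a type and less RNA per cell cannot be told apart. The part of these cell types in the members' differences was not tested.

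**Figure D3:**
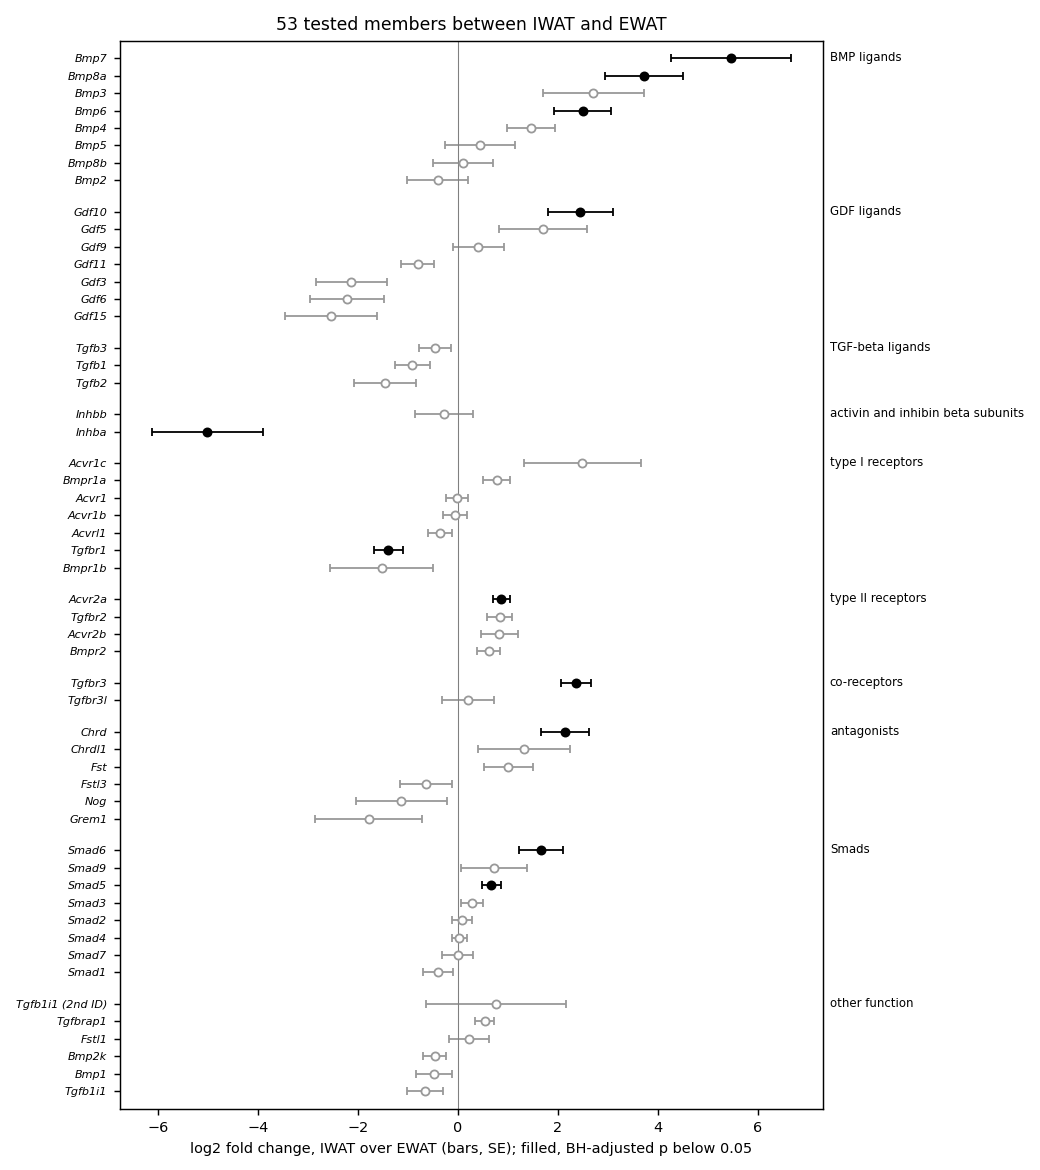
Log2 fold change of 53 of the 54 tested members, IWAT over EWAT, by role, with bars for the SE and filled points for a Benjamini-Hochberg adjusted p below 0.05. The 9 filled points right of 0 include Bmp7 at 5.46, and the 2 left of 0 are Tgfbr1 at -1.40 and Inhba at -5.01.

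Promoters of called members that moved in opposite directions are shown so that their sequences can be set beside the differences in transcript level. Of the 63 symbols, 43 had an entry in the RefSeq promoter table of GRCm38.p6, and 9 of the 11 called did. Each entry covers 250 bases before the gene start and 50 after it. The 3 sequences searched are known to be bound by Smads, and they were sought on both strands: CAGAC with its complement GTCTG, the GC-rich GGCGCC, and the palindrome GTCTAGAC. None of the 3 contains another. CAGAC was found in 49.6% of 32851 promoters of this length, in 20 of the 43 members and in 5 of the 9 called. GGCGCC was found in 11.9% of all promoters, in 10 of the 43 and in 4 of the 9. GTCTAGAC was found in 0.213% of all promoters and, among the members, in 1, that of Smad6. A match is a description of these letters and not a bound site. Members were counted with 1 promoter each, and the 32851 hold every entry of that length. GC content was not matched, and whether these shares differ was not tested. The first 2 called members in each direction with an entry, ranked by p, and Smad6 are printed 5′ to 3′ on the strand of the gene, with matches in capitals. They are Acvr2a at chr2:48813859-48814158 (+), Bmp8a at chr4:123343203-123343502 (-), Tgfbr1 at chr4:47352972-47353271 (+), Inhba at chr13:16011601-16011900 (+) and Smad6 at chr9:64022010-64022309 (-).
Acvr2a: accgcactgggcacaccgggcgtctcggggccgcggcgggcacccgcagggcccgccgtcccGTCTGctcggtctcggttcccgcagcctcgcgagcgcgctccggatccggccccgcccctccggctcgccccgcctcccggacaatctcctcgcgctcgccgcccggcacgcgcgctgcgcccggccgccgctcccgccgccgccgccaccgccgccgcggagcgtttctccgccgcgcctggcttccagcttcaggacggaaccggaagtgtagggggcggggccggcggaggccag
Bmp8a: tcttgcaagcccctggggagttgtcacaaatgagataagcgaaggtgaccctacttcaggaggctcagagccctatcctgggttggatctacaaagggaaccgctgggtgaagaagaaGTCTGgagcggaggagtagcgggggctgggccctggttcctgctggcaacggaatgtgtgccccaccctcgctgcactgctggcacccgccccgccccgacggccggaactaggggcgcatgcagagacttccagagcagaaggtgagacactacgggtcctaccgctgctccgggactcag
Tgfbr1: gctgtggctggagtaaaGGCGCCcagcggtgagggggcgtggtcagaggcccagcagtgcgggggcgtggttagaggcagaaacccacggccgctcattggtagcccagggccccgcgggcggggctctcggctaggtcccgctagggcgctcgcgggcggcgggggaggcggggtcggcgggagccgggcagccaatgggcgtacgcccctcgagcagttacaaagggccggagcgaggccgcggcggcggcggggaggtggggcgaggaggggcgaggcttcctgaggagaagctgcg
Inhba: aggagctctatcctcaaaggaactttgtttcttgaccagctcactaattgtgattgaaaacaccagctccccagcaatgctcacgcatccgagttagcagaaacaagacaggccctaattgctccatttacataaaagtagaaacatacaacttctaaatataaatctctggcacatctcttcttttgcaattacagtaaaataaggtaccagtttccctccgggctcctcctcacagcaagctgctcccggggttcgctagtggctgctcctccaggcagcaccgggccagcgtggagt
Smad6: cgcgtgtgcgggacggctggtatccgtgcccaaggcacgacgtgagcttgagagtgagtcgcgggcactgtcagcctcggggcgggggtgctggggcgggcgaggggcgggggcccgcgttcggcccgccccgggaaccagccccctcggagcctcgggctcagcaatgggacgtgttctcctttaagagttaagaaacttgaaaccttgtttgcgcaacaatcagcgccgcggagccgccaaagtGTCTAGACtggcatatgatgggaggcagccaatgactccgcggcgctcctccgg

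Of the BMP ligands, 3 of 8 tested were called higher in IWAT over EWAT and 0 lower, against 4.43% and 4.6% of all genes. Whether a role differs from all genes was not tested, here and in the counts by role that follow. The median log2 fold change of the BMP ligands was 1.98. Bmp7, known for brown fat formation (chr2:172868012-172940321, minus strand, GRCm38), had 2.08, 1.57 and 4.55 CPM in BAT 1 to 3, 1.26, 0.0909 and 1.97 CPM in RWAT, 11.8, 7.94 and 1.35 CPM in IWAT, and 0.238, 0.228 and 0 CPM in EWAT. The IWAT and EWAT libraries did not overlap, and IWAT 3 lay below all BAT libraries and within the range of RWAT. In EWAT these levels came from 5, 4 and 0 counts, so the log2 fold change of 5.46 ± 1.20 (SE; edgeR adjusted p = 0.0273) depends on few reads. Bmp6 (chr13:38345107-38500302, plus strand), a BMP also known for iron control in the liver, had 4.95, 5.12 and 11.0 CPM in BAT, 3.58, 2.09 and 5.38 CPM in RWAT, 4.38, 14.1 and 11.6 CPM in IWAT, and 2.24, 2.28 and 0.83 CPM in EWAT. Every IWAT library was above every EWAT library, and the log2 fold change was 2.49 ± 0.57 (edgeR adjusted p = 0.0299). Its exons overlap those of Txndc5 on the opposite strand by 224 of 3900 bases, and the strand setting of the counting is not given in the sources used here. Bmp8a (chr4:123312645-123343252, minus strand) was at the edge of detection, with 0.412 to 2.01 CPM in IWAT and 0.0488 to 0.114 CPM in EWAT, where EWAT held 5 reads in all. Its log2 fold change was 3.73 ± 0.78 (edgeR adjusted p = 0.0239). Reads may be split between Bmp8a and its close paralog Bmp8b. The RSEM posterior standard deviation of a count was at most 0.78 for Bmp8a and 1.34 for Bmp8b.

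Bmp8b, a BMP known from brown adipocytes, had 0.507 to 0.876 CPM in BAT, 0.338 to 0.818 CPM in RWAT, 0.327 to 1.07 CPM in IWAT and 0.244 to 0.971 CPM in EWAT, with all depots overlapping. In BAT 1, the BAT library with high Ucp1, it stood at 0.746 CPM. Bmp4, known for white fat commitment, had 4.05, 3.12 and 2.41 CPM in IWAT, against 1.14, 1.60 and 0.733 CPM in EWAT. These libraries did not overlap, but the difference missed the threshold (log2 fold change 1.46 ± 0.47; edgeR adjusted p = 0.0699), just outside the calls. Bmp3, a BMP known to oppose other BMPs, had 73.9, 90.3 and 120 CPM in IWAT, against 2.67, 38.3 and 2.69 CPM in EWAT (edgeR adjusted p = 0.103). EWAT 1, the library lowest in adipocyte transcripts, was one of the low ones for Bmp3, and EWAT 3 the other. Bmp2 stood out in a single library, with 22.1 CPM in EWAT 1 against 3.32 to 7.94 CPM in the other 11. Bmp5 lay between 0.268 and 1.92 CPM and was highest in BAT 1. Exons of Bmp5 share 1878 of 4025 bases with Gm26903 on the opposite strand.

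Among the GDF ligands, 1 of 7 tested was called higher in IWAT over EWAT and 0 lower, against 4.43% and 4.6% of all genes. Their median log2 fold change was -0.81. Gdf10 (chr14:33923587-33937983, plus strand), a BMP3-like ligand, had 10.9, 3.50 and 15.5 CPM in BAT, 11.4, 6.09 and 8.79 CPM in RWAT, 47.2, 17.7 and 21.5 CPM in IWAT, and 1.71, 8.39 and 5.71 CPM in EWAT. All 3 IWAT libraries were above the other 9. The log2 fold change over EWAT was 2.45 ± 0.64 (edgeR adjusted p = 0.0419). Gdf6, a ligand related to GDF5, had 0.0533, 0.558 and 0.164 CPM in BAT, 1.26, 2.41 and 0.455 CPM in RWAT, 0.392, 0.625 and 1.65 CPM in IWAT, and 3.67, 5.31 and 3.47 CPM in EWAT. EWAT was above all other libraries and 2 of the BAT libraries below all others. For BAT over EWAT the log2 fold change was -3.96 ± 0.82, which missed the threshold (edgeR adjusted p = 0.130). Gdf15, a stress-induced ligand that acts through the brain receptor GFRAL, had 0.458, 1.03 and 8.59 CPM in IWAT, against 20.1, 14.0 and 24.2 CPM in EWAT, and Gdf3 had 0.327, 1.65 and 2.41 CPM in IWAT, against 3.71, 4.34 and 11.4 CPM in EWAT. Neither passed (edgeR adjusted p = 0.0960 and 0.0764). Gdf11 was at 3.60 to 9.93 CPM, Gdf9 at 0.303 to 1.44 CPM and Gdf5 at 0.0476 to 1.49 CPM across all 12 libraries. Exons of Gdf5 share 936 of 2320 bases with Gm15557 on the opposite strand.

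Of the activin and inhibin beta subunits, 0 of 2 tested were called higher and 1 lower in IWAT over EWAT, against 4.43% and 4.6% of all genes. Inhba (chr13:16011851-16031621, plus strand) had 2.18, 8.62 and 0.438 CPM in BAT, 2.13, 3.18 and 1.59 CPM in RWAT, 0.131, 0.625 and 0.824 CPM in IWAT, and 37.7, 9.65 and 5.13 CPM in EWAT. EWAT 1 was far above the rest, and no IWAT library reached 1 CPM. Inhba fell by 5.01 ± 1.11 on the log2 scale in IWAT over EWAT (edgeR adjusted p = 0.0278). Without EWAT 1 the call was lost, in a fit where 2 of the 11 called members were still called. The Inhba call was also lost without EWAT 3, IWAT 1 or IWAT 2, and with limma-voom. Inhbb had 50.4, 53.4 and 57.3 CPM in IWAT, against 137, 34.9 and 23.4 CPM in EWAT, so the depots overlapped. Its highest libraries were EWAT 1 and, at 89.1 CPM, BAT 2. None of the 3 TGF-beta ligands passed the threshold, which 9.03% of all genes passed. Tgfb1, the most abundant, had 31.1, 33.8 and 64.4 CPM in IWAT, against 99.6, 44.6 and 100 CPM in EWAT (edgeR adjusted p = 0.108). Tgfb2 had 3.71 to 6.41 CPM in IWAT and 5.32 to 25.6 CPM in EWAT, and Tgfb3 had 12.5 to 27.3 CPM in IWAT and 19.2 to 35.9 CPM in EWAT.

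Of the type I receptors, 0 of 7 were called higher and 1 lower in IWAT over EWAT, against 4.43% and 4.6% of all genes. Tgfbr1 (chr4:47353222-47414931, plus strand) had 72.1, 97.8 and 54.8 CPM in BAT, 95.2, 127 and 62.3 CPM in RWAT, 50.4, 60.9 and 61.6 CPM in IWAT, and 169, 119 and 166 CPM in EWAT. Every IWAT library was below every EWAT library. Tgfbr1 fell by 1.40 ± 0.29 on the log2 scale (edgeR adjusted p = 0.0223). On log2(TPM + 0.1) the log2 fold change was -1.09 and the call was lost (limma-trend adjusted p = 0.276). The median log2 fold change of all genes was 0.24 on that scale, against 0.02 in the count test, and its part in the lost call was not tested. Bmpr1a, a type I receptor of BMPs, had 141, 122 and 117 CPM in IWAT, against 63.6, 96.7 and 61.8 CPM in EWAT, and just missed the threshold (edgeR adjusted p = 0.0831). Acvr1c had 64.8, 19.2 and 283 CPM in BAT, 225, 338 and 325 CPM in IWAT, and 1.62, 112 and 44.4 CPM in EWAT. Its level within a depot was lowest in BAT 2, RWAT 2 and EWAT 1, the libraries that also had the lowest adipocyte sum of those depots, while in IWAT the lowest was IWAT 1, which had the highest adipocyte sum. The part of adipocyte content in this spread was not tested. The endothelial receptor Acvrl1 had 33.5 to 73.1 CPM over the 12 libraries, Acvr1 14.1 to 25.0 CPM, Acvr1b 25.0 to 46.1 CPM and Bmpr1b 0.0548 to 2.52 CPM.

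All 4 type II receptors had positive log2 fold changes with an unadjusted p below 0.05 in IWAT over EWAT, as did 2832 of all 18942 genes. After adjustment 1 of the 4 passed, where 4.43% of all genes were called higher. Acvr2a (chr2:48814109-48903269, plus strand), which binds activins and several BMPs, had 33.7, 35.3 and 40.7 CPM in BAT, 37.0, 32.4 and 38.7 CPM in RWAT, 46.0, 47.7 and 38.5 CPM in IWAT, and 27.5, 23.6 and 21.4 CPM in EWAT. All EWAT libraries were below all others, and the log2 fold change was 0.87 ± 0.16 (edgeR adjusted p = 0.0193). On log2(TPM + 0.1) the call was lost, with a log2 fold change of 0.99 (limma-trend adjusted p = 0.184). Its exons share 446 of 5686 bases with Orc4 on the opposite strand. Tgfbr2 had 280, 452 and 238 CPM in IWAT, against 196, 169 and 180 CPM in EWAT (edgeR adjusted p = 0.0620). Bmpr2, the BMP type II receptor, had 165, 207 and 176 CPM in IWAT, against 158, 104 and 95.4 CPM in EWAT (edgeR adjusted p = 0.104), and Acvr2b had 2.01 to 2.18 CPM in IWAT, against 0.879 to 1.43 CPM in EWAT (edgeR adjusted p = 0.156).

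Tgfbr3 (chr5:107106570-107289629, minus strand) encodes betaglycan, which presents TGF-beta2 to its receptors and serves as a co-receptor of inhibins. It had 135, 123 and 184 CPM in BAT, 120, 69.2 and 98.8 CPM in RWAT, 237, 328 and 187 CPM in IWAT, and 42.8, 62.3 and 40.5 CPM in EWAT. The depots ran in the order IWAT, BAT, RWAT and EWAT. No library of IWAT overlapped another depot, nor did any library of EWAT. The log2 fold change of IWAT over EWAT was 2.37 ± 0.30 (edgeR adjusted p = 0.00727). In the test of any difference between the 4 depots Tgfbr3 was the sole member called (edgeR adjusted p = 0.0332), 1 of 54, where 0.211% of all genes were called. That test also gave 15 members an unadjusted p below 0.05 (27.8%), against 19.6% of all genes. Without the replicates BAT 1, EWAT 1, EWAT 2, EWAT 3, IWAT 1, IWAT 2 or RWAT 3, one at a time, 0 members were called in it and 7 to 37 genes in all. Without BAT 2 there were 4 members among 530 genes called, against 40 genes with all libraries. BAT over EWAT (log2 fold change 1.60 ± 0.29; adjusted p = 0.0872) and RWAT over IWAT (-1.38 ± 0.29; adjusted p = 0.125) missed the threshold in edgeR. Neighbours in the order of depots were not called apart. Its exons share 297 of 6545 bases with Gm43422 on the same strand. Tgfbr3l, a related gene, had 0.603 to 2.28 CPM, and shares 1530 of 2930 exon bases with Gm49320 on the same strand.

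**Figure D4:**
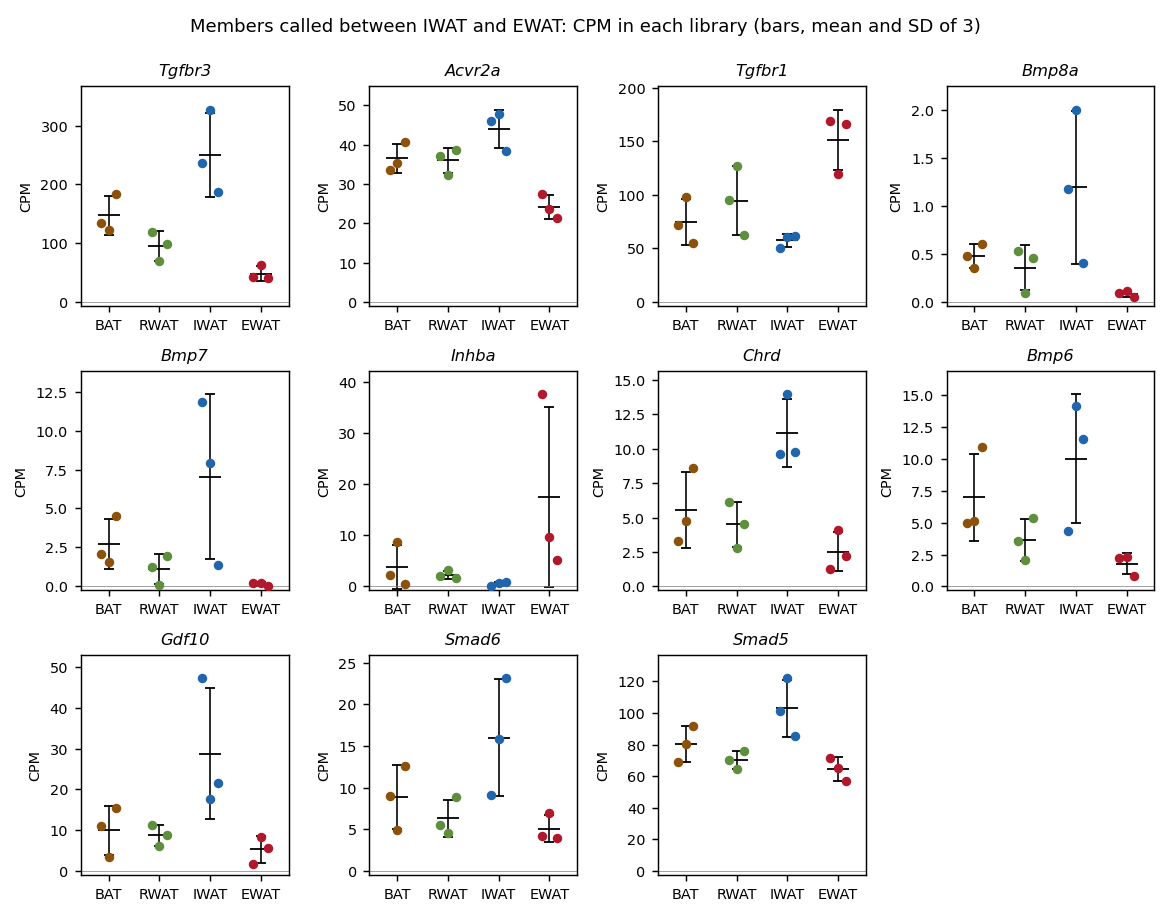
CPM of the 11 called members in each library, with depots along the x axis from BAT to EWAT, points for libraries and bars for the mean and SD of 3. Tgfbr3 lies at 187 to 328 CPM in IWAT, against 40.5 to 62.3 CPM in EWAT, while Inhba in EWAT is spread from 5.13 to 37.7 CPM.

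Among the secreted antagonists, 1 of 7 tested was called higher in IWAT over EWAT and 0 lower, against 4.43% and 4.6% of all genes. Chrd (chordin; chr16:20733127-20742384, plus strand), which sequesters BMP2, BMP4 and BMP7, had 3.30, 4.77 and 8.60 CPM in BAT, 6.14, 2.82 and 4.55 CPM in RWAT, 9.61, 14.0 and 9.77 CPM in IWAT, and 1.29, 4.11 and 2.20 CPM in EWAT. IWAT was above all other libraries. Its log2 fold change was 2.14 ± 0.49 (edgeR adjusted p = 0.0294), and its exons share 239 of 6258 bases with Thpo on the opposite strand. Fst, the activin antagonist follistatin, had 12.2, 21.1 and 8.36 CPM in IWAT, against 12.8, 4.74 and 3.17 CPM in EWAT, so the depots overlapped. Chrdl1 had 43.8 to 134 CPM in IWAT and 7.28 to 93.1 CPM in EWAT, Fstl3 2.72 to 7.88 CPM in IWAT and 4.10 to 12.4 CPM in EWAT, and Grem1 0.0892 to 0.235 CPM in IWAT and 0.285 to 0.857 CPM in EWAT. Exons of Fstl3 share 1157 of 2445 bases with Prss57 on the opposite strand. Nog (noggin) had at most 1.41 CPM in any library.

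Of the Smads, 2 of 8 were called higher in IWAT over EWAT and 0 lower, against 4.43% and 4.6% of all genes. Smad6 (chr9:63953076-64022059, minus strand), the inhibitory Smad of the BMP arm, had 9.06, 4.92 and 12.6 CPM in BAT, 5.51, 4.55 and 8.87 CPM in RWAT, 9.09, 15.8 and 23.1 CPM in IWAT, and 4.24, 6.97 and 4.01 CPM in EWAT. Every IWAT library was above every EWAT library. The log2 fold change was 1.66 ± 0.44 (edgeR adjusted p = 0.0425), and its promoter is the one with GTCTAGAC above. Smad5 (chr13:56703010-56742377, plus strand), a BMP-arm Smad, had 101, 122 and 85.4 CPM in IWAT, against 71.7, 65.4 and 56.9 CPM in EWAT. Its log2 fold change was 0.67 ± 0.18 (edgeR adjusted p = 0.0452), the highest p of the 11 calls, and it was called under 8 of 25 alternatives. Neither Smad of the TGF-beta and activin arm was called: Smad2 had 37.1 to 55.1 CPM in IWAT and 35.6 to 48.9 CPM in EWAT, and Smad3 had 41.1 to 47.7 CPM in IWAT and 28.9 to 50.1 CPM in EWAT. Smad1 and Smad9 of the BMP arm were not called either. Smad1 had 22.7, 30.4 and 26.0 CPM in IWAT, against 53.6, 23.2 and 27.7 CPM in EWAT. Smad9 had 0.588 to 1.38 CPM in IWAT and 0.293 to 1.14 CPM in EWAT. Over the 12 libraries Smad4 had 54.3 to 68.7 CPM and Smad7 7.44 to 18.1 CPM.

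The members named for the pathway but known for other functions gave 0 calls of 6 tested in IWAT over EWAT in edgeR (9.03% of all genes). At an unadjusted p below 0.05 there was 1 (29.7% of all genes). That was Tgfbrap1, which binds TGF-beta receptors, with 60.4, 55.2 and 54.7 CPM in IWAT, against 35.5, 38.1 and 44.2 CPM in EWAT (edgeR adjusted p = 0.0837). DESeq2 called it. Fstl1 had 605 to 1408 CPM in IWAT and 524 to 947 CPM in EWAT. Bmp1, a protease that trims procollagen, had 99.0 to 154 CPM in IWAT and 117 to 234 CPM in EWAT, and Bmp2k, a kinase, 83.7 to 91.0 CPM in IWAT and 88.8 to 146 CPM in EWAT.

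The depot means of the called members fell into 3 orders. All 9 members that were higher in IWAT ran IWAT, BAT, RWAT and EWAT from high to low, as did 79.3% of the 839 genes called higher in IWAT. Of the 2 lower in IWAT, Tgfbr1 ran EWAT, RWAT, BAT and IWAT, the order of 65.7% of the 871 genes called lower, and Inhba ran EWAT, BAT, RWAT and IWAT, the order of 25% of them. The ends of these orders follow from how the genes were chosen. BAT means take in BAT 2 and BAT 3, the BAT libraries low in Ucp1. The part of cell types in these orders was not tested.

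The remaining comparisons gave few or no calls. Those with BAT include BAT 2 and BAT 3, where Ucp1 did not bear out the label. Set against the average of the 3 white depots, BAT had 0 members called (background 0.0528% of all genes), and 1, Gdf6, had an unadjusted p below 0.05 (4.66% of all genes did). Its edgeR log2 fold change was -2.70 ± 0.73 (adjusted p = 0.329). BAT over EWAT called 0 (background 0.0845%), with 11 members at an unadjusted p below 0.05, 20.4% against 9.41% of all genes. Without BAT 2 this comparison called 2 members, and 179 genes in all, against 16 with all libraries. The 11 members at an unadjusted p below 0.05 with all libraries include Tgfbr3, Acvr2a, Bmp6, Bmp7 and Bmp8a on the higher side. On the lower side they include Gdf6, Tgfbr1, Inhba and Tgfb3. BAT over IWAT called 0 (background 0.0264%), with 8 at an unadjusted p below 0.05 (12.4% of all genes). BAT over RWAT called 0 (background 0.0158%), with 1 at an unadjusted p below 0.05 (4.36% of all genes). RWAT over EWAT called 0 (background 0.00528%), with 6 at an unadjusted p below 0.05 (4.52% of all genes), and RWAT over IWAT called 0 (background 0%), with 16, 29.6% against 19.8% of all genes. In these 6 comparisons limma-voom called 0 members in each. DESeq2 called 1 member in BAT against the white depots, 5 in BAT over EWAT, 1 in BAT over IWAT, 0 in BAT over RWAT, 0 in RWAT over EWAT and 3 in RWAT over IWAT. The comparisons share libraries, so their values are not independent of one another. Whether a member differs more between IWAT and EWAT than between another pair of depots was not tested.

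Genes of the pathway that the symbol rule does not reach were taken from lists of targets, extracellular modulators and intracellular regulators. The lists were chosen with earlier results of these data known. Whether their shares of calls differ from those of all genes was not tested, here and in the next paragraph. In IWAT over EWAT 15 of 49 tested IDs were called in edgeR (30.6%, against 9.03% of all genes), 10 higher and 5 lower, and 0 in each of the other 7 comparisons. The count of IDs called was 0 without EWAT 3 or without IWAT 2, 1 without IWAT 1 and 4 without EWAT 1, and on the log2(TPM + 0.1) scale it was 8 higher and 0 lower. The extracellular modulators gave 7 of 20 called, all higher, where 4.43% of all genes were called higher. Rgma and Rgmb, membrane co-receptors of BMPs, had 17.5, 22.1 and 23.8 CPM and 26.3, 22.6 and 18.3 CPM in IWAT, against 5.62, 8.39 and 5.81 CPM and 12.6, 11.8 and 10.3 CPM in EWAT. No library overlapped in either gene. Their log2 fold changes were 1.68 ± 0.27 and 0.95 ± 0.19 (edgeR adjusted p = 0.0142 and 0.0211). Dcn (decorin), a proteoglycan that binds TGF-beta, had 1045, 1074 and 463 CPM in IWAT, against 115, 274 and 179 CPM in EWAT (log2 fold change 2.18 ± 0.44). Ltbp1 and both Ensembl IDs of Ltbp4, which encode binding proteins of latent TGF-beta, and the BMP antagonist Nbl1 also rose. Dcn is also a fibroblast transcript, and the fibroblast and preadipocyte sums are given above.

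Of the BMP targets, 3 of 8 were called, against 9.03% of all genes, with Msx1 higher and Id2 and Bambi lower. Id2 had 15.5, 11.3 and 11.9 CPM in IWAT, against 44.7, 37.4 and 51.6 CPM in EWAT, and fell by 1.79 ± 0.41 on the log2 scale (edgeR adjusted p = 0.0294). Bambi, a decoy receptor, had 1.90, 2.14 and 2.53 CPM in IWAT, against 11.9, 7.99 and 9.67 CPM in EWAT (log2 fold change -2.17 ± 0.49). Id1, the classical BMP target, had 15.3, 10.9 and 13.5 CPM in BAT, 4.59, 6.64 and 7.12 CPM in RWAT, 6.41, 10.9 and 11.5 CPM in IWAT, and 6.76, 5.71 and 6.55 CPM in EWAT, and was not called in any comparison. Of the TGF-beta targets, 2 of 11 were called, against 9.03% of all genes, and the median of the log2 fold changes over the 11 was -1.01. Pmepa1, an inhibitor of TGF-beta signalling, had 236, 155 and 125 CPM in IWAT, against 67.9, 61.3 and 44.6 CPM in EWAT, and rose by 1.57 ± 0.29 on the log2 scale (edgeR adjusted p = 0.0177). Skil, a repressor of Smad transcription, had 51.6, 70.2 and 51.3 CPM in IWAT, against 152, 93.3 and 89.5 CPM in EWAT and fell. Ccn2 (CTGF, a matricellular protein; Ctgf in the deposited tables) had 13.3, 43.9 and 63.6 CPM in IWAT, against 606, 128 and 88.7 CPM in EWAT. EWAT 1 was the highest of the 12 libraries, and the difference did not pass (edgeR adjusted p = 0.0807). Ccn2 is named here after its values were seen. Of the intracellular regulators 3 of 10 were called, against 9.03% of all genes. Zfyve9 (SARA, the anchor of Smad2 and Smad3) was higher, and the corepressors Tgif1 and Tgif2 were lower. Tgif1 had 6.15, 9.68 and 12.9 CPM in IWAT, against 47.2, 26.6 and 34.9 CPM in EWAT.

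**Figure D5:**
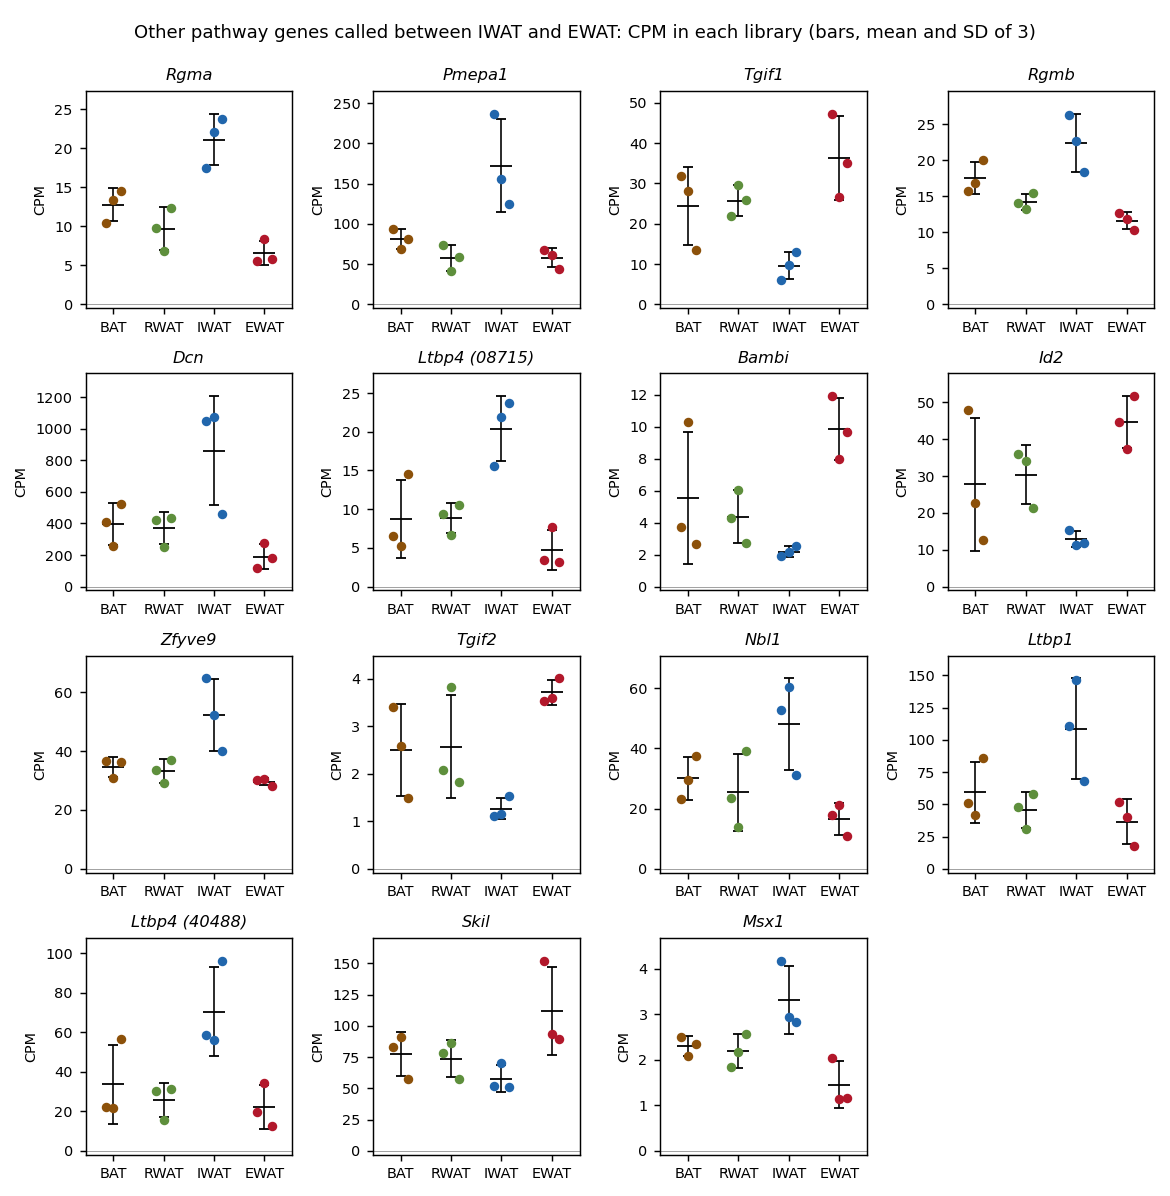
CPM of the 15 IDs of pathway genes outside the symbol rule that were called between IWAT and EWAT, in each library by depot, with bars for the mean and SD of 3. Rgma lies at 17.5 to 23.8 CPM in IWAT, against 5.62 to 8.39 CPM in EWAT, and Id2 at 11.3 to 15.5 CPM in IWAT, against 37.4 to 51.6 CPM in EWAT.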

How the data were processed

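RNA abundance was measured by RNA sequencing in 12 libraries, 3 from each of 4 depots, grouped by the depot in the labels. Per the submitters' processing notes, the tools were Trimmomatic 0.36, RSEM 1.3.0 and DESeq2 1.10.1 with genome build GRCm38.p4; the aligner, annotation release and strand setting are not given in the sources used here. Per the file headers, the authors deposited for each library RSEM expected counts (estimated counts per gene, not normalized), TPM, effective lengths and posterior standard deviations of the counts. Every table held the same 47729 genes.

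Expected counts were rounded and reduced to 18942 genes by edgeR 4.0.16 (its filterByExpr, with a minimum of 10) and scaled by TMM. Depots were compared with edgeR's two-sided quasi-likelihood test in 1 model over 12 libraries: a test of any difference between depots and 7 contrasts, adjusted by the Benjamini-Hochberg method over all genes tested at 0.05. The biological coefficient of variation was 0.385. SEs were derived from the log2 fold change and its F statistic. CPM are counts over TMM-scaled library totals. No molecular identifiers were described, so floors cover counting error only. R 4.3.3 was used.

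Members and gene lists were chosen with earlier results of these data known. Named genes were every called member, in each role the 4 with the smallest p of the depot test and the 2 of highest TPM, a fixed list, and all called genes of the pathway lists; others are named where they complete an account of the members. The alternatives were RLE and upper-quartile factors, no filter, at least 1 CPM in 3 libraries as the filter, limma-voom and limma-trend (limma 3.58.1) on log2(TPM + 0.1) and log2(TPM + 1), DESeq2 1.42.0, an effective-length offset, only the groups compared, a replicate block, leaving out each library, and leaving out EWAT 1 with BAT 2 or RWAT 1 with RWAT 3. Positions and exon overlaps came from GENCODE M21, in which 63 of the 64 member IDs were found. Promoters came from RefSeq, GRCm38.p6. Values of 1 member and of 1 target gene are not reported here, though both stay in the counts.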

Additional observations from a re-analysis of the deposited data

How the results depend on the processing

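For IWAT over EWAT, where 11 members were called, DESeq2 called 20 and the replicate block 3, leaving out EWAT 1 and BAT 2 gave 6 and leaving out RWAT 1 and RWAT 3 gave 7, and leaving out each library in turn gave 1 to 13. The other alternatives gave 8 to 12. For the test of any depot difference (1 member), no filter gave 4, DESeq2 14, log2(TPM + 1) 2, and the replicate block, the fit without EWAT 1 and BAT 2 and the fit without RWAT 1 and RWAT 3 each gave 0, while leave-one-out fits gave 0 to 4. For BAT over EWAT (0 members), no filter gave 1, DESeq2 5 and leave-one-out fits 0 to 2. DESeq2 gave 1 member for BAT against the white depots, 1 for BAT over IWAT and 3 for RWAT over IWAT. Leaving out single libraries gave 0 members in each of these and in BAT over RWAT and RWAT over EWAT. Genes called in all for IWAT over EWAT (1710) were 3780 with DESeq2, 639 with the block, 733 without EWAT 1 and BAT 2, 759 without RWAT 1 and RWAT 3, and 16 to 2397 in leave-one-out fits. For any depot difference (40 genes) no filter gave 548, DESeq2 2421 and the block 11. DESeq2 gave 180 genes for BAT against the white depots (10), 477 for BAT over EWAT (16), 321 for BAT over IWAT (5), 45 for BAT over RWAT (3), 130 for RWAT over EWAT (1) and 1150 for RWAT over IWAT (0). No filter gave 79 for BAT against the white depots and 70 for BAT over EWAT, and the fit without EWAT 1 and BAT 2 gave 179 and 4. Leave-one-out fits gave 7 to 530 genes for any depot difference, 1 to 223 for BAT against the white depots, 1 to 179 for BAT over EWAT, 0 to 43 for BAT over IWAT and 0 to 10 for BAT over RWAT, each highest without BAT 2. With log2(TPM + 0.1), 88.9% of the calls were higher in IWAT, and with log2(TPM + 1) 90.3%, against 49.1%. The median log2 fold change of all genes was 0.24 and 0.17 on those scales, against 0.02. Of 3891 results for single genes, 3563 kept direction and side of the threshold, 91 passed it, 236 no longer passed it and 1 reversed: Bmp7 in RWAT over EWAT, at -0.72 without RWAT 1 and RWAT 3, with 1 RWAT library left (edgeR adjusted p = 1). Where 1 library is left, it is assumed to vary like the other groups. Replicate numbers were not taken to pair the samples, and whether a number marks 1 animal is not stated: deviations of same-numbered libraries were correlated over 0.1 in all 3 pairs for BAT and RWAT, and not for the other 5 pairs of depots. For BAT over RWAT the replicate block gave 0 members and 1 gene in all, against 3. The causes of these changes were not tested. Depth limits the members under the floor of 3 counts, such as Bmp8a in EWAT.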
